A study of Mus musculus with 29 samples.

Results

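The genes described are the matrix metalloproteases (MMPs), the tissue inhibitors of metalloproteases (TIMPs), the ADAM proteases and the ADAMTS and ADAMTS-like genes, chosen by symbol alone as those starting with Mmp, Timp or Adam and a digit, or with Adamts. They were 34 of the 11959 genes in the count table, or 0.284%. The 34 comprised 8 MMP genes, 4 TIMP genes, 9 ADAM genes, 11 ADAMTS genes and 2 ADAMTS-like (ADAMTSL) genes. The GRCm38 annotation holds 83 protein-coding genes with such symbols, of which the other 49 were not analysed here. RNA-seq was performed on 3T3-L1 cells, an established line of mouse preadipocytes that turn into white adipocytes when induced. Confluent preadipocytes received 10 µM KDM5-C70 (C70), an inhibitor of the KDM5 histone demethylases, or DMSO vehicle from day -2 to day 0. All cells then passed through differentiation medium from day 0 to day 2 and adipocyte medium afterwards, with neither compound present. RNA was collected at days 0, 1, 2 and 7, which gave 8 groups and 29 samples, with 4 C70 samples on every day, 3 vehicle samples on days 0, 1 and 2, and 4 vehicle samples on day 7.

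These families cut and remodel the matrix around the cell. MMPs degrade collagens, laminins and other matrix proteins, ADAMs release the outer parts of membrane proteins, ADAMTS enzymes cut proteoglycans and process procollagens, and TIMPs block all of these enzymes to differing degrees. When a preadipocyte becomes an adipocyte it exchanges a fibrous matrix for a basement membrane, and enzymes such as MMP14 are known to be needed for white fat to expand.

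Total counts per sample ranged from 16320275 to 24037170, and values are given as CPM, which are counts scaled to library size with TMM factors. A gene is called a DEG where edgeR's quasi-likelihood test over all 11959 genes gave a Benjamini-Hochberg adjusted P value under 0.05 and the log2 fold change was over 0.322 in size. No source says that the replicates were separate cultures, so P values measure the spread between these samples, which may be technical. All samples are labelled as adipocytes, but Adipoq, which encodes the adipocyte hormone adiponectin, was at 0.283 ± 0.110 CPM (SD, n = 3) in vehicle at day 0 and at 1340 ± 189 CPM (SD, n = 4) at day 7. Of the marker lists for other cells, 0 of 3 endothelial genes and 0 of 4 epithelial genes were in the count table, and only Cd68 of 5 macrophage and blood genes.

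The most abundant transcript per length belonged to Mmp2, which encodes gelatinase A, an enzyme that cuts basement membrane collagen and gelatin. On the scale of mean CPM per kilobase of exon, it stood at 1228 ± 109 (SD, n = 3) in vehicle at day 0 and was first of the 34 in each of the 8 groups. Mmp14, the membrane-bound activator of the MMP2 precursor, followed at 269.8 ± 8.48 (SD, n = 3), Adamts1, a versican and aggrecan protease, at 263 ± 15.3 (SD, n = 3) and Timp2 at 201 ± 9.29 (SD, n = 3). The level of Mmp2 lay above those of the next genes by far more than their spread, while Mmp14 and Adamts1 differed by less than the SD of Adamts1. Timp4, Adamts15 and Adam8 had the lowest levels at that time, at 0.201 ± 0.00633, 0.421 ± 0.0957 and 1.245 ± 0.237 CPM per kilobase (SD, n = 3 each).

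In vehicle-treated cells most of these genes fell as differentiation went on. At day 1, 13 of the 34 were higher than at day 0 and 16 were lower, where 26.2% of all genes were higher and 27.9% lower. At day 2, 7 were higher and 22 lower, against 33.4% and 32.4% of all genes. At day 7, 7 were higher and 25 lower, against 36.7% and 36.7% of all genes. The median log2 fold change of the 34 from day 0 to day 7 was -1.90, where the median of all genes was 0.0083. The comparisons share the day 0 vehicle samples. In bulk RNA, fewer cells of a type and less RNA per cell cannot be told apart.

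By family, 7 of 8 MMP genes, 3 of 4 TIMP genes, 6 of 9 ADAM genes, 8 of 11 ADAMTS genes and 1 of 2 ADAMTSL genes were lower in vehicle at day 7 than at day 0. Of all genes, 36.7% were lower. The largest falls were those of Mmp13, which encodes collagenase 3, with a log2 fold change of -6.91 (SE 0.177, adjusted P = 1.57e-25 by edgeR), Mmp3, which encodes stromelysin 1, and Timp3, the inhibitor that is held in the matrix, at -5.69 (SE 0.118, adjusted P = 7.66e-28 by edgeR). Mmp3 had only 2 or 3 counts in each day 7 vehicle library, and its pooled count there, scaled for library size, was 0.00843 of that at day 0 with an exact 95% interval of 0.00403 to 0.0156 for counting error alone. The largest rises were those of Adamts15, an aggrecan and versican protease, at 5.72 (SE 0.11998, adjusted P = 1.05e-27 by edgeR), Timp4 at 2.76 (SE 0.213, adjusted P = 3.15e-13 by edgeR), and Adam12, which encodes meltrin alpha, at 1.41 (SE 0.0799, adjusted P = 1.46e-16 by edgeR). Mmp19, Adam15, Adamts12 and Adamtsl4 were also higher at day 7 than at day 0, by 0.84, 1.11, 0.44 and 0.76 on the log2 scale, and Adamts12 lost this call without day 0 vehicle replicate 2 (0.30). Adam9 and Adamts9 were not DEGs at day 7, at 0.14 and 0.22.

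C70 raised most of the 34 genes after differentiation was induced. At day 0, when the inhibitor was removed, 6 of 34 (17.6%) were higher with C70 and 3 (8.82%) lower, where 5.89% of all genes were higher and 3.09% lower. Without day 0 vehicle replicate 1, the lower calls of Adamts12 and Adamts15 were lost. Without replicate 2 of that group, Mmp13 and Adamts14 were lower DEGs too, and Adam33 was no longer a higher one. At day 1, 17 were higher and 4 (11.8%) lower, against 13.6% and 7.8% of all genes. At day 2, 24 (70.6%) were higher and 0 lower, against 16.9% and 13.6% of all genes. At day 7, 25 (73.5%) were higher and 0 lower, against 14.3% and 4.85% of all genes. The count of 0 came from edgeR, and DESeq2 and limma also made 0 lower calls on these days. At an unadjusted P value under 0.05, 1 gene was lower at day 2 and 1 at day 7. These were Adam12 at day 2 (adjusted P = 0.000616 by edgeR) and Adam9 at day 7 (adjusted P = 0.0119 by edgeR), which passed the P threshold and missed only the fold change threshold. Timp4 was under 1 CPM in every vehicle sample of days 1 and 2 and Mmp3 in every vehicle sample of day 7. How the authors filtered genes is not given in the sources used here, and these counts are descriptions of the genes that are in the table.

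**Figure D1:**
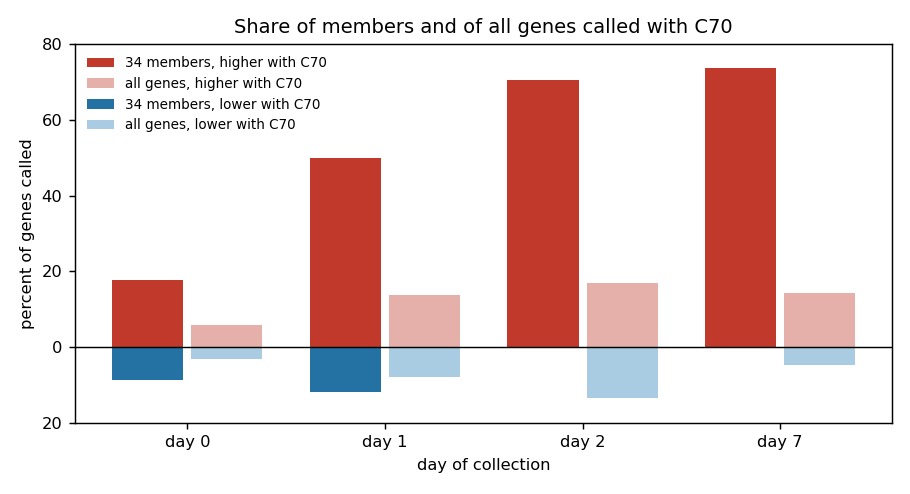
Share of the 34 genes (dark bars) and of all 11959 genes (pale bars) that were DEGs with C70 against vehicle on each day of collection, in percent, with higher genes above the zero line and lower genes below it. The share of the 34 that was higher went from 17.6% at day 0 to 73.5% at day 7, while none was lower at days 2 and 7.

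The median log2 fold change of the 34 with C70 on days 0, 1, 2 and 7 was 0.0097, 0.30, 0.59 and 0.69, where the medians of all genes were -0.00043, -0.0060, -0.0036 and 0.0038. At day 2, every C70 sample was above every vehicle sample for 25 of the 34 genes and below for 3, where 28.2% of all genes were so above and 29% below. At day 7 the counts were 24 and 0, where 16.5% of all genes were above and 12.8% below. Over all genes, the share of DEGs that were higher depended on the scaling between samples: it was 65.6%, 63.6%, 55.5% and 74.6% on days 0, 1, 2 and 7, and 59.5%, 50.5%, 47.3% and 59.3% after quantile normalization, so that at day 2 most DEGs were then lower. With that scaling, day 0 had 6 higher and 2 lower DEGs among the 34 and day 1 had 15 higher and 4 lower, while days 2 and 7 had 23 and 22 higher and 0 lower.

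**Figure D2:**
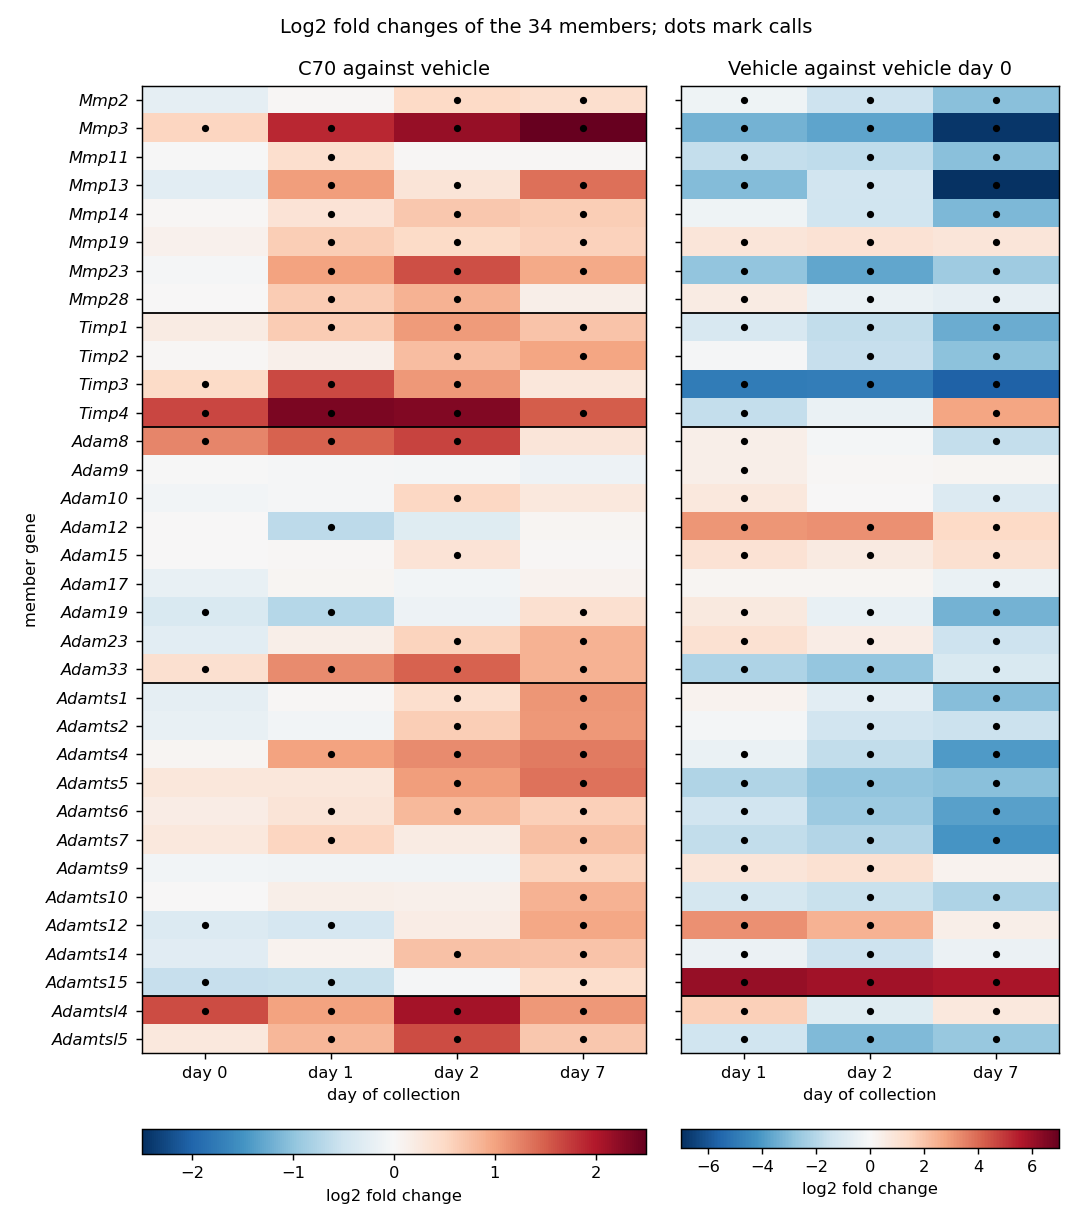
Log2 fold changes of the 34 genes, 1 gene per line and lines grouped by family, for C70 against vehicle on 4 days (left) and for vehicle against vehicle at day 0 (right), each with its own colour scale; black dots mark DEGs. At days 2 and 7 the left panel has 24 and 25 dots, all on higher genes, while 25 of the 32 dots at day 7 in the right panel are on lower genes.

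Of the 34 genes, 31 were higher with C70 on at least 1 day and 4 were lower on at least 1 day, against 26.3% and 21% of all genes. Mmp3, Timp4, Adam33 and Adamtsl4 were higher on all 4 days, as were 2.06% of all genes. Mmp13, Mmp14, Mmp19, Mmp23, Timp1, Adamts4, Adamts6 and Adamtsl5 were higher at days 1, 2 and 7, and Mmp2, Timp2, Adam23, Adamts1, Adamts2, Adamts5 and Adamts14 at days 2 and 7 only, where 3.71% and 2.99% of all genes showed these patterns. Adam19, Adamts12 and Adamts15 were lower at days 0 and 1 and higher at day 7, as were 0.1% of all genes. Without day 0 vehicle replicate 1, the day 0 calls of Adamts12 (-0.26) and Adamts15 (-0.38) were lost. The day 7 call of Adam19 was lost after quantile normalization (0.24). Adam9 and Adam17 were not DEGs on any day, as was the case for 55.5% of all genes. Without 1 library, Adamts14 was a lower DEG at day 0 (-0.33 without day 0 vehicle replicate 2 and -0.35 without day 0 C70 replicate 2) and Adamts5 a higher one at day 1 (0.34 without day 1 vehicle replicate 3).

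Promoter sequences are shown for 3 of the 4 genes that were higher on all 4 days, because these genes shared a higher call on each day. In vehicle they did not move together from day 0 to day 7, when Mmp3 fell and Timp4 and Adamtsl4 rose. Of the 34 genes, 23 had a RefSeq promoter entry (GRCm38.p6), with 26 entries in all, each of which spans 250 bases before to 50 bases after the annotated start. The 250 bases before the start are printed for Mmp3 (chr9:7445572-7445821, plus strand), Timp4 (chr6:115252206-115252455, minus strand) and Adamtsl4 (chr3:95687918-95688167, minus strand), 5′ to 3′ along the gene, with capitals marking matches to TGANTCA (the AP-1 site), TATAAA (the TATA box) or GGGCGG (the GC box). The letters TTNNGNAA, as in C/EBP sites, were also searched and are not capitalised.
Mmp3: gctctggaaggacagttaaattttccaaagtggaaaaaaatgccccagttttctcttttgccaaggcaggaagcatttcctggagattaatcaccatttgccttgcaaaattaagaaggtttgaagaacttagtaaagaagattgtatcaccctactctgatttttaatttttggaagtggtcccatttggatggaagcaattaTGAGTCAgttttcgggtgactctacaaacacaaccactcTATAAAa
Timp4: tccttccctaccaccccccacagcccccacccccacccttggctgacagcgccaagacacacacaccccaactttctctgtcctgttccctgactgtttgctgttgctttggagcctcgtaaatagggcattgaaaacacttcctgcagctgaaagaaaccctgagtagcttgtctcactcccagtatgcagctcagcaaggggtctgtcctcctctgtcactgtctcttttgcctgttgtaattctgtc
Adamtsl4: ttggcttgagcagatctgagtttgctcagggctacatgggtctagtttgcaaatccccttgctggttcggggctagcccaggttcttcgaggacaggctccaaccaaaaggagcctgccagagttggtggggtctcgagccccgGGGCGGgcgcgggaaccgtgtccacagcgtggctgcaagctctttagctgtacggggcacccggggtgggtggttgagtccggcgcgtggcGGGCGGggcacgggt
Matches were searched on both strands over the whole 300-base window, and a match is a description of letters, not a bound site. Mmp3 had the AP-1 letters TGAGTCA beginning 46 bases before its start and TATAAA beginning 7 bases before it. Mmp13, its neighbour on chromosome 9, also had both, with TGACTCA 35 bases and TATAAA 16 bases before the start. Of the 26 entries, AP-1 letters were in 3 (Mmp3, Mmp13 and Adam19), where 7.81% of the 32851 RefSeq promoters hold them, and TATAAA in 3 (Mmp3, Mmp13 and Adamts1), where 13.6% do. The GC box was in 18 of the 26, where 35.7% of all promoters hold it, and the C/EBP letters were in 6 of the 26 (Mmp3, Mmp28, Timp1, Adam8, Adam15 and Adam19), where 40.7% do. Mmp3 had 3 matches to the C/EBP letters, and Adamtsl4 had 4 copies of the GC box in the window, 2 of them in the printed bases. None of the 4 motifs was in the Timp4 window. The windows also differed in CpG content, with 24 CpG dinucleotides in that of Adamtsl4, 2 in that of Timp4 and 1 in that of Mmp3, against a median of 19.5 in the 26 entries and 7 in all promoters.

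The TIMP genes encode the inhibitors, and all 4 were DEGs at day 2, where each was higher with C70. At day 0, Timp3 and Timp4 were higher, at day 1 Timp1, Timp3 and Timp4, and at day 7 Timp1, Timp2 and Timp4. On days 0, 1, 2 and 7, 5.89%, 13.6%, 16.9% and 14.3% of all genes were higher. Summed over the 4 genes, C70 samples were at 488 ± 24.8 CPM (SD, n = 4) on day 2, against 280 ± 13.7 in vehicle (SD, n = 3), and on day 7 at 247 ± 11.2 against 124 ± 20.6 (SD, n = 4 each). Timp2 made up most of these sums. Timp1, Timp3 and Timp4 overlap the synapsin genes Syn1, Syn3 and Syn2 on the opposite strand, and whether the authors counted by strand is not stated in the sources used here.

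**Figure D3:**
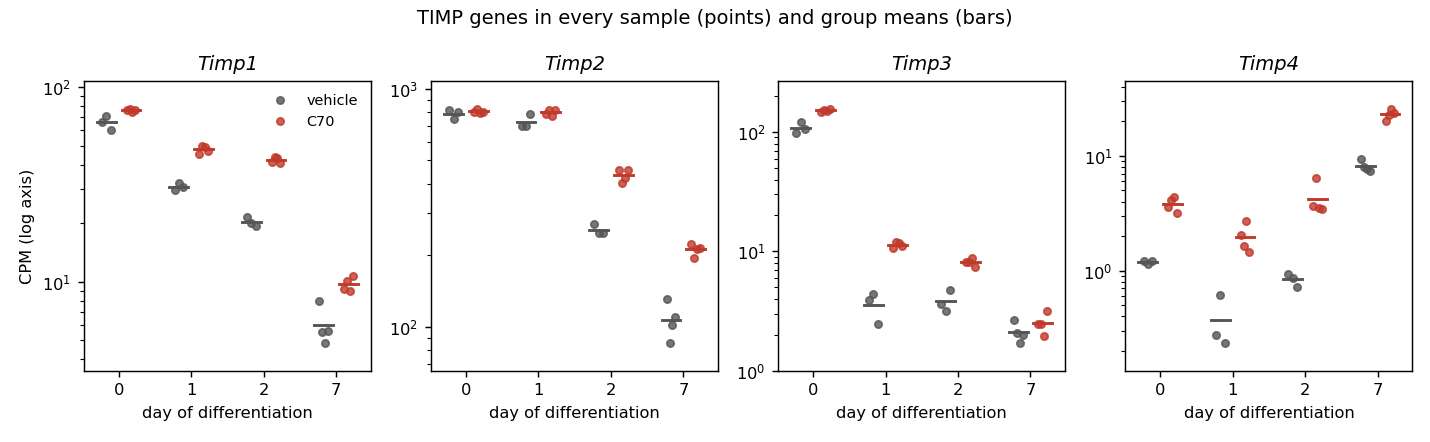
CPM (log axis, a scale of its own for each gene) of the 4 TIMP genes in every vehicle (grey) and C70 (red) sample by day of differentiation; points are samples and bars are group means. Timp1, Timp2 and Timp3 went down from day 0 to day 7 while Timp4 went up, and at day 2 every C70 point lies above every vehicle point for each gene.

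Timp4 (chromosome 6, 115241892 to 115252205) encodes the inhibitor most restricted to fat, heart and brain, and it had the largest C70 effect of the family. At day 0, Timp4 was at 1.21, 1.14 and 1.21 CPM in the vehicle samples and at 3.59, 4.09, 4.42 and 3.16 CPM in the C70 samples. At day 1, Timp4 was at 0.274, 0.611 and 0.235 CPM in the vehicle samples and at 2.05, 1.62, 2.696 and 1.46 CPM in the C70 samples. The C70 samples lay above all vehicle samples on both days, with log2 fold changes of 1.67 (SE 0.233, adjusted P = 3.56e-06 by edgeR) and 2.36 (SE 0.346, adjusted P = 2.17e-06 by edgeR). The vehicle values at day 1 rest on 6, 13 and 5 counts, and the log2 fold change at that day was 2.89 without vehicle replicate 2 and 3.02 after quantile normalization. At day 2, Timp4 was at 0.945, 0.860 and 0.716 CPM in the vehicle samples and at 3.63, 6.41, 3.53 and 3.43 CPM in the C70 samples. At day 7, Timp4 was at 9.37, 7.95, 7.69 and 7.40 CPM in the vehicle samples and at 20.3, 22.8, 25.6 and 23.4 CPM in the C70 samples. The groups were apart again, with log2 fold changes of 2.32 (SE 0.2499, adjusted P = 4e-09 by edgeR) and 1.51 (SE 0.132, adjusted P = 1.36e-10 by edgeR). At day 2, C70 replicate 2 stood above the other C70 samples.

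Timp3 (chromosome 10, 86300372 to 86349506) encodes the inhibitor that binds to the matrix and blocks ADAM17 and ADAMTS enzymes as well as MMPs. At day 0, Timp3 was at 98.7, 121 and 105 CPM in the vehicle samples and at 146, 154, 151 and 156 CPM in the C70 samples. At day 1, Timp3 was at 3.88, 4.41 and 2.45 CPM in the vehicle samples and at 10.7, 11.9, 11.7 and 11.05 CPM in the C70 samples. In both treatments the level dropped more than 10-fold within the first day, and every C70 sample was above every vehicle sample. The log2 fold changes were 0.49 (SE 0.0768, adjusted P = 2.27e-05 by edgeR) and 1.66 (SE 0.137, adjusted P = 3.95e-11 by edgeR). At day 2, Timp3 was at 3.64, 3.19 and 4.76 CPM in the vehicle samples and at 8.22, 8.21, 8.80 and 7.38 CPM in the C70 samples. At day 7, Timp3 was at 2.68, 2.09, 1.71 and 1.97 CPM in the vehicle samples and at 2.47, 2.48, 1.96 and 3.16 CPM in the C70 samples. The groups were apart at day 2, at 1.09 (SE 0.143, adjusted P = 1.56e-07 by edgeR), and overlapped at day 7, where the log2 fold change was 0.27 (SE 0.196, adjusted P = 0.278 by edgeR) and Timp3 was not a DEG.

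Timp1 (chromosome X, 20870166 to 20874735) encodes a secreted inhibitor of most MMPs. At day 0, Timp1 was at 66.2, 71.1 and 60.5 CPM in the vehicle samples and at 76.7, 77.2, 74.9 and 76.1 CPM in the C70 samples. At day 1, Timp1 was at 29.6, 32.0 and 30.6 CPM in the vehicle samples and at 45.6, 49.96, 49.0 and 46.9 CPM in the C70 samples. Every C70 sample was above every vehicle sample on both days, but the log2 fold change at day 0 was 0.21 (SE 0.0662, adjusted P = 0.0231 by edgeR), a change under the fold threshold, and at day 1 it was 0.64 (SE 0.0719, adjusted P = 1.99e-08 by edgeR). At day 2, Timp1 was at 21.5, 19.9 and 19.3 CPM in the vehicle samples and at 41.4, 43.6, 43.0 and 40.9 CPM in the C70 samples. At day 7, Timp1 was at 7.97, 5.52, 4.85 and 5.59 CPM in the vehicle samples and at 9.17, 10.1, 8.92 and 10.7 CPM in the C70 samples. The groups did not overlap, and the log2 fold changes were 1.06 (SE 0.0759, adjusted P = 7.12e-13 by edgeR) and 0.71 (SE 0.102, adjusted P = 1.38e-06 by edgeR).

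Timp2 (chromosome 11, 118301069 to 118355740) encodes the inhibitor that also links MMP14 to the MMP2 precursor on the cell surface. At day 0, Timp2 was at 812, 743 and 797 CPM in the vehicle samples and at 801, 821, 793 and 795 CPM in the C70 samples. At day 1, Timp2 was at 697, 699.7 and 786 CPM in the vehicle samples and at 784, 814, 770.5 and 815 CPM in the C70 samples. The groups overlapped on both days, and the log2 fold changes were 0.034 (SE 0.0769, adjusted P = 0.827 by edgeR) and 0.13 (SE 0.0771, adjusted P = 0.188 by edgeR). At day 2, Timp2 was at 269.9, 248 and 248 CPM in the vehicle samples and at 458, 401, 420.3 and 454 CPM in the C70 samples. At day 7, Timp2 was at 131, 86.2, 102 and 111 CPM in the vehicle samples and at 224, 196, 213 and 215 CPM in the C70 samples. At these days every C70 sample was above every vehicle sample, with log2 fold changes of 0.76 (SE 0.0791, adjusted P = 1.75e-09 by edgeR) and 0.98 (SE 0.0747, adjusted P = 7.31e-12 by edgeR).

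Among the MMP genes, 1, 7, 7 and 6 of 8 were higher with C70 on days 0, 1, 2 and 7. Over all genes, 5.89%, 13.6%, 16.9% and 14.3% were higher on these days. At day 0, Mmp2 was at an adjusted P value under 0.05 below vehicle without passing the fold change threshold. Summed over the 8 genes, of which Mmp2 gave the most, C70 samples were at 5641 ± 118 CPM (SD, n = 4) on day 0, against 6228 ± 472 in vehicle (SD, n = 3), and on day 1 at 5406 ± 249 (SD, n = 4) against 4857 ± 158 (SD, n = 3). They were at 3542 ± 175 CPM (SD, n = 4) on day 2, against 2444 ± 98.5 in vehicle (SD, n = 3), and on day 7 at 1281 ± 82.4 against 916 ± 92.4 (SD, n = 4 each).

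Mmp2 (chromosome 8, 92827291 to 92853420) encodes gelatinase A. At day 0, Mmp2 was at 4406, 3720.1 and 4294 CPM in the vehicle samples and at 3453, 3602, 3609 and 3539 CPM in the C70 samples. At day 1, Mmp2 was at 3452, 3237 and 3207 CPM in the vehicle samples and at 3223, 3639, 3208 and 3331 CPM in the C70 samples. All C70 samples were below all vehicle samples at day 0, at -0.22 (SE 0.0747, adjusted P = 0.0343 by edgeR), and the groups overlapped at day 1, at 0.022 (SE 0.0749, adjusted P = 0.843 by edgeR). At day 2, Mmp2 was at 1593, 1527 and 1454 CPM in the vehicle samples and at 2292, 1949.5, 2153 and 2178 CPM in the C70 samples. At day 7, Mmp2 was at 579, 497, 484 and 612 CPM in the vehicle samples and at 723, 702, 664 and 825 CPM in the C70 samples. From day 2 the order was the other way round, with every C70 sample above every vehicle sample and log2 fold changes of 0.49 (SE 0.0758, adjusted P = 2.5e-06 by edgeR) and 0.42 (SE 0.0701, adjusted P = 1.3e-05 by edgeR).

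Mmp14 (chromosome 14, 54431612 to 54445364) encodes the membrane-bound collagenase that activates the MMP2 precursor. At day 0, Mmp14 was at 1636, 1549 and 1637 CPM in the vehicle samples and at 1592, 1684, 1644 and 1606 CPM in the C70 samples. At day 1, Mmp14 was at 1308, 1256 and 1308 CPM in the vehicle samples and at 1586, 1713, 1605 and 1629 CPM in the C70 samples. The groups overlapped at day 0, at 0.021 (SE 0.0616, adjusted P = 0.868 by edgeR), and every C70 sample was higher at day 1, at 0.34 (SE 0.0620, adjusted P = 5.29e-05 by edgeR). At day 2, Mmp14 was at 639.6, 596 and 592 CPM in the vehicle samples and at 1011, 919, 965 and 985 CPM in the C70 samples. At day 7, Mmp14 was at 209, 157, 164 and 185 CPM in the vehicle samples and at 265, 259, 281 and 286 CPM in the C70 samples. The groups stayed apart, with log2 fold changes of 0.67 (SE 0.0628, adjusted P = 2.2e-10 by edgeR) and 0.61 (SE 0.0588, adjusted P = 9.06e-10 by edgeR). The day 1 value was close to the fold change threshold: the call was lost without replicate 2 of either day 1 group (0.32 in each), and after quantile normalization (0.17).

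Mmp3 (chromosome 9, 7445822 to 7455975) encodes stromelysin 1, which cuts many matrix proteins and activates other MMPs. At day 0, Mmp3 was at 15.1, 17.8 and 15.8 CPM in the vehicle samples and at 24.2, 21.8, 24.9 and 23.7 CPM in the C70 samples. At day 1, Mmp3 was at 1.87, 1.83 and 1.27 CPM in the vehicle samples and at 6.06, 6.45, 6.80 and 5.50 CPM in the C70 samples. Every C70 sample was above every vehicle sample, with log2 fold changes of 0.55 (SE 0.117, adjusted P = 0.000991 by edgeR) and 1.89 (SE 0.190, adjusted P = 2.1e-09 by edgeR). At day 2, Mmp3 was at 1.62, 0.941 and 1.23 CPM in the vehicle samples and at 6.88, 5.57, 4.01 and 6.10 CPM in the C70 samples. At day 7, Mmp3 was at 0.116, 0.169, 0.147 and 0.110 CPM in the vehicle samples and at 0.429, 0.532, 0.833 and 1.37 CPM in the C70 samples. The groups were apart on both days, at 2.17 (SE 0.204, adjusted P = 2.35e-10 by edgeR) for day 2 and 2.5007 (SE 0.479, adjusted P = 9.74e-05 by edgeR) for day 7. At day 7 the values rest on 10 counts in the 4 vehicle libraries and 57 in the 4 C70 libraries, a ratio of 5.88 per scaled library with an exact 95% interval of 2.98 to 12.9 for counting error alone, and the fitted fold change is not a bound. After quantile normalization the day 7 value was 1.55.

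Mmp13 (chromosome 9, 7272514 to 7283331) encodes collagenase 3, which cuts fibrillar collagen. At day 0, Mmp13 was at 233, 147 and 217 CPM in the vehicle samples and at 169.99, 165, 166 and 163 CPM in the C70 samples. At day 1, Mmp13 was at 22.9, 22.4 and 27.98 CPM in the vehicle samples and at 49.8, 40.6, 55.3 and 55.0 CPM in the C70 samples. The groups overlapped at day 0, where vehicle replicate 2 was the lowest sample and the log2 fold change was -0.27 (SE 0.110, adjusted P = 0.0888 by edgeR). Without that sample it was -0.44 (adjusted P = 0.00206 by edgeR), which made Mmp13 a lower DEG at day 0. At day 1 every C70 sample was above every vehicle sample, with a log2 fold change of 1.04 (SE 0.131, adjusted P = 1.72e-07 by edgeR). At day 2, Mmp13 was at 83.2, 77.6 and 76.8 CPM in the vehicle samples and at 103, 115, 87.9 and 93.1 CPM in the C70 samples. At day 7, Mmp13 was at 0.931, 1.86, 1.57 and 2.25 CPM in the vehicle samples and at 5.41, 4.02, 3.75 and 4.06 CPM in the C70 samples. The groups did not overlap on either day, at 0.33 (SE 0.116, adjusted P = 0.0179 by edgeR) for day 2 and 1.38 (SE 0.277, adjusted P = 0.000174 by edgeR) for day 7. The day 2 call was lost in DESeq2 (adjusted P = 0.0582) and without any of 4 single day 2 libraries, vehicle replicate 2 or 3 or C70 replicate 1 or 2 (0.26 to 0.32).

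The other MMP genes were Mmp11, Mmp19, Mmp23 and Mmp28. Mmp19 was higher with C70 at days 1, 2 and 7, by 0.61, 0.47 and 0.57 on the log2 scale. Mmp23, which encodes a membrane-anchored MMP, was higher by 1.00, 1.61 and 0.94 on these days. Mmp28, which encodes epilysin, was higher by 0.63 at day 1 and 0.86 at day 2 and was not a DEG at day 7, at 0.14. Mmp11, which encodes stromelysin 3, was higher at day 1 by 0.42 and was not a DEG at the other times, with values from -0.01 to 0.03. Mmp11 overlaps Chchd10 on the opposite strand.

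**Figure D4:**
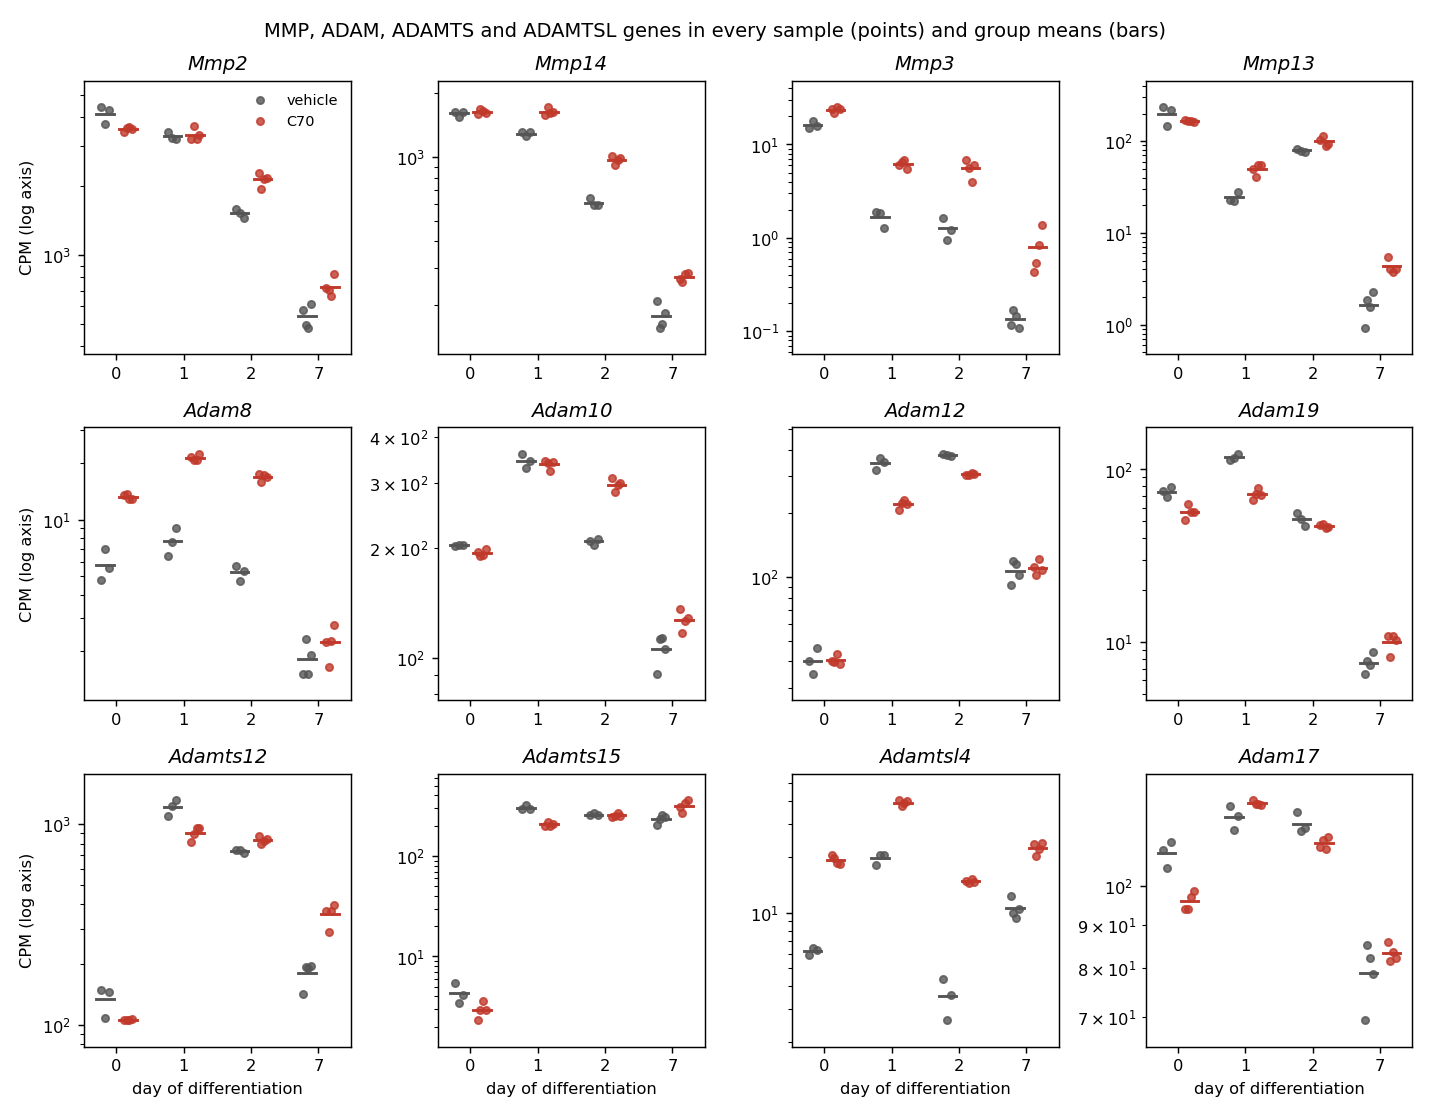
CPM (log axis, a scale of its own for each gene) of 12 protease and ADAMTS-like genes in every vehicle (grey) and C70 (red) sample by day of differentiation; points are samples and bars are group means. Adam8 and Adamtsl4 were higher with C70 at days 0, 1 and 2, Adam12 was lower with C70 at day 1, and Adamts15 was at 5.44 CPM or less in every day 0 sample and at 196 or more in every later sample.

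The ADAM genes encode membrane-bound proteins, most of them sheddases. Of 9 genes, 2 were higher and 1 lower with C70 at day 0, 2 higher and 2 lower at day 1, 5 higher at day 2 and 3 higher at day 7. Over all genes, 5.89%, 13.6%, 16.9% and 14.3% were higher on these days and 3.09%, 7.8%, 13.6% and 4.85% lower. In vehicle at day 1, 7 of 9 were higher than at day 0, where 26.2% of all genes were.

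Adam8 (chromosome 7, 139978932 to 139992562) encodes a protease known mainly from white blood cells. At day 0, Adam8 was at 4.79, 6.96 and 5.57 CPM in the vehicle samples and at 13.5, 13.7, 12.9 and 12.97 CPM in the C70 samples. At day 1, Adam8 was at 6.39, 7.65 and 8.998 CPM in the vehicle samples and at 21.6, 20.8, 20.8 and 22.4 CPM in the C70 samples. Every C70 sample was well above every vehicle sample, and the log2 fold changes were 1.21 (SE 0.114, adjusted P = 2.32e-09 by edgeR) and 1.48 (SE 0.106, adjusted P = 1.63e-12 by edgeR). At day 2, Adam8 was at 5.71, 4.71 and 5.37 CPM in the vehicle samples and at 17.5, 15.9, 17.4 and 16.9 CPM in the C70 samples. At day 7, Adam8 was at 1.51, 2.31, 1.52 and 1.92 CPM in the vehicle samples and at 2.25, 1.66, 2.26 and 2.74 CPM in the C70 samples. The groups were apart at day 2, at 1.69 (SE 0.114, adjusted P = 2.02e-13 by edgeR), and overlapped at day 7, at 0.31 (SE 0.183, adjusted P = 0.184 by edgeR). Cd68, the macrophage marker in the table, was at 19.1 ± 0.481 CPM with C70 (SD, n = 4) on day 0, against 1.31 ± 0.309 in vehicle (SD, n = 3). Its mean with C70 was 14.1 CPM at day 1 and 6.68 at day 2, against 1.88 and 1.59 in vehicle, and on day 7 it was at 1.94 ± 0.705 against 2.43 ± 0.346 (SD, n = 4 each). Every C70 sample was above every vehicle sample for Cd68, as for Adam8, on days 0, 1 and 2, and the groups overlapped for both on day 7. The other 4 macrophage and blood markers (Ptprc, Adgre1, Csf1r and Lyz2) were not among the genes analysed here, and the part of such cells in the Adam8 result was not tested.

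Adam10 (chromosome 9, 70678997 to 70780229) encodes the sheddase of Notch and of many adhesion proteins. At day 0, Adam10 was at 202, 203 and 204 CPM in the vehicle samples and at 195, 190.0, 191 and 199 CPM in the C70 samples. At day 1, Adam10 was at 360.0, 329 and 344 CPM in the vehicle samples and at 345, 339.8, 324 and 342 CPM in the C70 samples. The C70 samples were just below vehicle at day 0, at -0.068 (SE 0.0550, adjusted P = 0.445 by edgeR), and overlapped with vehicle at day 1, at -0.028 (SE 0.0543, adjusted P = 0.723 by edgeR). At day 2, Adam10 was at 209, 204 and 212 CPM in the vehicle samples and at 309.6, 283, 296 and 299 CPM in the C70 samples. At day 7, Adam10 was at 90.7, 113, 114 and 106 CPM in the vehicle samples and at 136, 118, 126 and 129 CPM in the C70 samples. Each C70 sample was higher on these days, but only day 2 passed both thresholds, at 0.51 (SE 0.0553, adjusted P = 4.01e-09 by edgeR), while day 7 was at 0.26 (SE 0.0526, adjusted P = 0.000164 by edgeR).

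Adam17 (chromosome 12, 21323509 to 21373632) encodes the sheddase that releases tumour necrosis factor and the preadipocyte protein DLK1. At day 0, Adam17 was at 110.3, 105 and 113 CPM in the vehicle samples and at 93.9, 93.9, 97.1 and 98.7 CPM in the C70 samples. At day 1, Adam17 was at 124, 116 and 121 CPM in the vehicle samples and at 126, 125, 125 and 124 CPM in the C70 samples. The C70 samples were lower at day 0, at -0.19 (SE 0.0467, adjusted P = 0.00407 by edgeR), which is under the fold threshold, and at day 1 the groups lay next to each other without passing the test, at 0.054 (SE 0.0464, adjusted P = 0.379 by edgeR). At day 2, Adam17 was at 122, 116 and 117 CPM in the vehicle samples and at 111, 113, 110.4 and 114 CPM in the C70 samples. At day 7, Adam17 was at 69.4, 85.1, 82.3 and 78.7 CPM in the vehicle samples and at 86.0, 81.6, 83.7 and 82.2 CPM in the C70 samples. The log2 fold changes were -0.077 (SE 0.0466, adjusted P = 0.171 by edgeR) and 0.079 (SE 0.0447, adjusted P = 0.161 by edgeR), and Adam17 was not a DEG on any day. Adam9, another widely expressed sheddase, was not a DEG either, with log2 fold changes from -0.14 to -0.0034.

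Adam12 (chromosome 7, 133883199 to 134232146) encodes meltrin alpha, known from muscle fusion and early adipogenesis. At day 0, Adam12 was at 40.1, 34.9 and 46.1 CPM in the vehicle samples and at 40.2, 39.9, 43.5 and 38.99 CPM in the C70 samples. At day 1, Adam12 was at 321, 366 and 349.8 CPM in the vehicle samples and at 207, 225, 231 and 222 CPM in the C70 samples. In vehicle it rose from day 0 to day 1 by a log2 fold change of 3.10 (SE 0.0853, adjusted P = 7.81e-24 by edgeR). The groups overlapped at day 0, at 0.0071 (SE 0.0807, adjusted P = 0.969 by edgeR), and every C70 sample was lower at day 1, at -0.65 (SE 0.0711, adjusted P = 1.29e-08 by edgeR). At day 2, Adam12 was at 382, 377 and 374 CPM in the vehicle samples and at 303, 303, 311 and 306 CPM in the C70 samples. At day 7, Adam12 was at 92.2, 119.7, 115 and 103 CPM in the vehicle samples and at 111, 102, 122 and 108 CPM in the C70 samples. All C70 samples were still below vehicle at day 2, at -0.30 (SE 0.0710, adjusted P = 0.000616 by edgeR), a change under the fold threshold, and the groups overlapped at day 7, at 0.043 (SE 0.0692, adjusted P = 0.649 by edgeR).

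Adam19 (chromosome 11, 46055992 to 46147343) encodes meltrin beta. At day 0, Adam19 was at 75.0, 69.5 and 78.7 CPM in the vehicle samples and at 50.9, 62.8, 56.7 and 56.9 CPM in the C70 samples. At day 1, Adam19 was at 114, 116 and 123 CPM in the vehicle samples and at 66.5, 72.2, 77.8 and 71.4 CPM in the C70 samples. The C70 samples were all below every vehicle sample, with log2 fold changes of -0.39 (SE 0.0703, adjusted P = 0.000139 by edgeR) and -0.71 (SE 0.0685, adjusted P = 1.04e-09 by edgeR). At day 2, Adam19 was at 55.6, 51.4 and 46.9 CPM in the vehicle samples and at 47.5, 48.0, 45.7 and 46.3 CPM in the C70 samples. At day 7, Adam19 was at 6.52, 7.72, 7.35 and 8.77 CPM in the vehicle samples and at 10.8, 8.16, 10.8 and 10.3 CPM in the C70 samples. The groups overlapped on both days, and the log2 fold changes were -0.13 (SE 0.0732, adjusted P = 0.135 by edgeR) and 0.40 (SE 0.104, adjusted P = 0.00248 by edgeR). Adam19 was thus a DEG in opposite directions early and late, but its day 7 call was lost after quantile normalization (0.24, adjusted P = 0.0949 by limma).

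Adam15, Adam23 and Adam33 complete the family. Adam33 was higher with C70 on all 4 days, by 0.41, 1.18, 1.48 and 0.86 on the log2 scale, and its day 0 call was lost without day 0 vehicle replicate 2 (0.38). Adam23, which encodes an adhesion protein without protease activity, was higher by 0.55 at day 2 and 0.88 at day 7. Adam15 was higher by 0.33 at day 2, a call lost without day 2 vehicle replicate 2 (0.31), and was at 0.0079, 0.024 and 0.027 on the other days.

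The ADAMTS genes showed their widest response at day 7, when all 11 were higher with C70, against 14.3% of all genes. At day 0, 2 of the 11 were lower with C70, at day 1 3 were higher and 2 lower, and at day 2 6 were higher. Over all genes, 3.09% were lower at day 0, 13.6% higher and 7.8% lower at day 1, and 16.9% higher at day 2. The day 0 calls, those of Adamts12 and Adamts15, were lost without day 0 vehicle replicate 1. Summed CPM were 788 ± 68.7 in vehicle and 1412 ± 149.8 with C70 at day 7 (SD, n = 4 each), and 2143 ± 128 (SD, n = 3) and 1955 ± 36.3 (SD, n = 4) at day 0. Of the 11 calls at day 7, that of Adamts7 was lost in a fit of day 7 alone (adjusted P = 0.0590 by edgeR), and those of Adamts6 and Adamts7 were lost after quantile normalization (adjusted P = 0.102 and 0.0829 by limma).

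Adamts12 (chromosome 15, 11064790 to 11349231) encodes a protease of cartilage oligomeric matrix protein. At day 0, Adamts12 was at 149, 108 and 145 CPM in the vehicle samples and at 105, 106, 105 and 106 CPM in the C70 samples. At day 1, Adamts12 was at 1095, 1234 and 1316 CPM in the vehicle samples and at 818, 894, 959.9 and 963 CPM in the C70 samples. All 4 C70 samples were below every vehicle sample, with log2 fold changes of -0.35 (SE 0.102, adjusted P = 0.0153 by edgeR) and -0.42 (SE 0.0977, adjusted P = 0.000922 by edgeR). At day 2, Adamts12 was at 741, 746 and 722 CPM in the vehicle samples and at 878, 797, 828 and 845 CPM in the C70 samples. At day 7, Adamts12 was at 142, 195, 193 and 197 CPM in the vehicle samples and at 369, 290.1, 369 and 395 CPM in the C70 samples. Each C70 sample was above every vehicle sample on these days, at 0.19 (SE 0.0988, adjusted P = 0.12 by edgeR) for day 2, where it was not a DEG, and 0.97 (SE 0.0938, adjusted P = 9.77e-10 by edgeR) for day 7. The day 0 call was lost without day 0 vehicle replicate 1 (-0.26) or 3 (-0.29).

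Adamts15 (chromosome 9, 30899155 to 30922452) encodes an aggrecan and versican protease, and in vehicle it had the largest rise of the 34 genes. At day 0, Adamts15 was at 5.44, 3.48 and 4.18 CPM in the vehicle samples and at 2.31, 2.95, 3.62 and 2.96 CPM in the C70 samples. At day 1, Adamts15 was at 295, 318 and 295 CPM in the vehicle samples and at 196, 219, 200.2 and 208 CPM in the C70 samples. The groups overlapped at day 0, at -0.58 (SE 0.1696, adjusted P = 0.0143 by edgeR), and every C70 sample was lower at day 1, at -0.56 (SE 0.08004, adjusted P = 1.61e-06 by edgeR). At day 2, Adamts15 was at 253, 267 and 255 CPM in the vehicle samples and at 247, 251, 268 and 251 CPM in the C70 samples. At day 7, Adamts15 was at 202, 235, 253 and 244 CPM in the vehicle samples and at 307, 266, 334 and 358 CPM in the C70 samples. The groups overlapped at day 2, at -0.023 (SE 0.0804, adjusted P = 0.834 by edgeR), and every C70 sample was higher at day 7, at 0.44 (SE 0.0747, adjusted P = 2.1e-05 by edgeR). The day 0 call was lost without replicate 1 of day 0 vehicle (-0.38) or of day 0 C70 (-0.48) and in limma (adjusted P = 0.0903).

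Among the other proteoglycan proteases, Adamts1, Adamts4 and Adamts5 were higher with C70 at day 2, by 0.43, 1.19 and 1.04 on the log2 scale, and at day 7, by 1.10, 1.30 and 1.36. Adamts5 was the largest ADAMTS response at day 7, but it was not apart from Adamts4. Fits without 1 library gave 1.30 to 1.41 for Adamts5 and 1.24 to 1.35 for Adamts4. Adamts4 was also higher at day 1, by 1.00. Adamts9 was higher at day 7 only, by 0.55. The procollagen N-propeptidases Adamts2 and Adamts14 were higher at day 2, by 0.62 and 0.73, and at day 7, by 1.09 and 0.71. Adamts6 and Adamts10, which are tied to fibrillin microfibrils, were higher at day 7, by 0.60 and 0.87. Adamts6 was also higher at day 2, by 0.81, and at day 1, by 0.33, a call lost without day 1 vehicle replicate 2 (0.23), C70 replicate 1 (0.28) or C70 replicate 4 (0.31). Adamts7, which also cuts cartilage oligomeric matrix protein, was higher at day 1, by 0.53, and at day 7, by 0.76.

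Adamtsl4 (chromosome 3, 95676201 to 95687917) encodes a fibrillin-binding protein that resembles ADAMTS enzymes but has no protease domain. At day 0, Adamtsl4 was at 5.92, 6.44 and 6.31 CPM in the vehicle samples and at 20.4, 19.7, 18.6 and 18.4 CPM in the C70 samples. At day 1, Adamtsl4 was at 18.2, 20.3 and 20.5 CPM in the vehicle samples and at 40.4, 37.5, 39.2 and 39.9 CPM in the C70 samples. The C70 samples were all well above every vehicle sample on both days, with log2 fold changes of 1.63 (SE 0.0967, adjusted P = 6.75e-14 by edgeR) and 1.00 (SE 0.0788, adjusted P = 1.57e-11 by edgeR). At day 2, Adamtsl4 was at 4.41, 2.62 and 3.58 CPM in the vehicle samples and at 14.7, 14.4, 15.3 and 14.7 CPM in the C70 samples. At day 7, Adamtsl4 was at 12.3, 9.97, 9.41 and 10.5 CPM in the vehicle samples and at 23.4, 20.3, 22.01 and 23.6 CPM in the C70 samples. The same held at days 2 and 7, at 2.07 (SE 0.111, adjusted P = 1.06e-15 by edgeR) and 1.09 (SE 0.0834, adjusted P = 8.06e-12 by edgeR). Adamtsl5, the other ADAMTS-like gene, was not a DEG at day 0, at 0.26, and was higher by 0.82, 1.64 and 0.68 at days 1, 2 and 7.

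The C70 effect differed between days by tests of the difference itself. From day 0 to day 2 it moved upward for 25 of the 34 genes and downward for 0 by edgeR, where 26.6% of all genes differed in either direction. At an unadjusted P value under 0.05, 1 gene, Adam12, had moved downward, by a log2 difference of -0.31 (adjusted P = 0.0232 by edgeR) that missed only the fold change threshold. Adam12 was called in DESeq2, with RLE size factors (-0.32), after quantile normalization (-0.32) and when either vehicle replicate 3 or C70 replicate 4 of day 0 was left out (-0.42 to -0.33), but not in limma. From day 2 to day 7 the C70 effect moved upward for 10 genes and downward for 9, where 11.9% of all genes moved upward and 9.04% downward. The 10 were Mmp13, Adam12, Adam19, Adam23, Adamts1, Adamts2, Adamts9, Adamts10, Adamts12 and Adamts15. The 9 were Mmp23, Mmp28, Timp1, Timp3, Timp4, Adam8, Adam33, Adamtsl4 and Adamtsl5. By family, 6 of the 11 ADAMTS genes gained in C70 effect between days 2 and 7, against 11.9% of all genes. Of the 4 TIMP genes, 3 lost in it, against 9.04% of all genes. The calls of Timp1 (adjusted P = 0.0379 by edgeR) and Timp4 (adjusted P = 0.0383 by edgeR) were close to the threshold. In limma, the calls of Timp1 (adjusted P = 0.0696), Timp4 (adjusted P = 0.0694) and Adam33 (adjusted P = 0.0606) for day 7 against day 2 were lost, and so was that of Adamts15 for day 2 against day 0 (adjusted P = 0.0879). That of Adam15 for day 2 against day 0 was lost in DESeq2, where the log2 difference was 0.317.

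Several of these differences lay close to a threshold, and leaving out 1 library ended the call. For day 2 against day 0 these were Adam8 (lost without vehicle replicate 2 of day 0 or vehicle replicate 2 of day 2, 0.33 to 0.39), Adamts15 (lost without vehicle replicate 1 of day 0 or C70 replicate 1 of day 0, 0.35 to 0.46), Adamtsl4 (lost without vehicle replicate 2 of day 0, vehicle replicate 3 of day 0 or vehicle replicate 2 of day 2, 0.25 to 0.43) and Adam15 (lost without vehicle replicate 1 of day 0, vehicle replicate 2 of day 0, C70 replicate 4 of day 0, vehicle replicate 2 of day 2, C70 replicate 3 of day 2 or C70 replicate 4 of day 2, 0.30 to 0.32). For day 7 against day 2 these were Adam12 (lost without vehicle replicate 1 of day 7 or C70 replicate 3 of day 7, 0.28 to 0.30) and Timp4 (lost without vehicle replicate 1 of day 2, vehicle replicate 2 of day 2, vehicle replicate 3 of day 2, C70 replicate 2 of day 2 or C70 replicate 1 of day 7, -0.90 to -0.55). The same held for Timp1 (lost without vehicle replicate 2 of day 2, vehicle replicate 3 of day 2, C70 replicate 2 of day 2, C70 replicate 3 of day 2, vehicle replicate 1 of day 7, C70 replicate 1 of day 7 or C70 replicate 3 of day 7, -0.34 to -0.19). It also held for Adam33 (lost without vehicle replicate 1 of day 2, C70 replicate 2 of day 2, C70 replicate 3 of day 2, vehicle replicate 1 of day 7, C70 replicate 1 of day 7, C70 replicate 3 of day 7 or C70 replicate 4 of day 7, -0.62 to -0.43) and for Adam23 (lost without C70 replicate 1 of day 1, vehicle replicate 2 of day 2, C70 replicate 2 of day 2, C70 replicate 3 of day 2, vehicle replicate 1 of day 7, vehicle replicate 2 of day 7, C70 replicate 3 of day 7 or C70 replicate 4 of day 7, 0.29 to 0.32). For day 7 against day 2, other genes were gained when 1 library was left out: Adam10 in 1 such fit (-0.32), Adam15 in 5 (-0.34 to -0.32), Adamts5 in 6 (0.33 to 0.37) and Adamts7 in 1 (0.78).

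**Figure D5:**
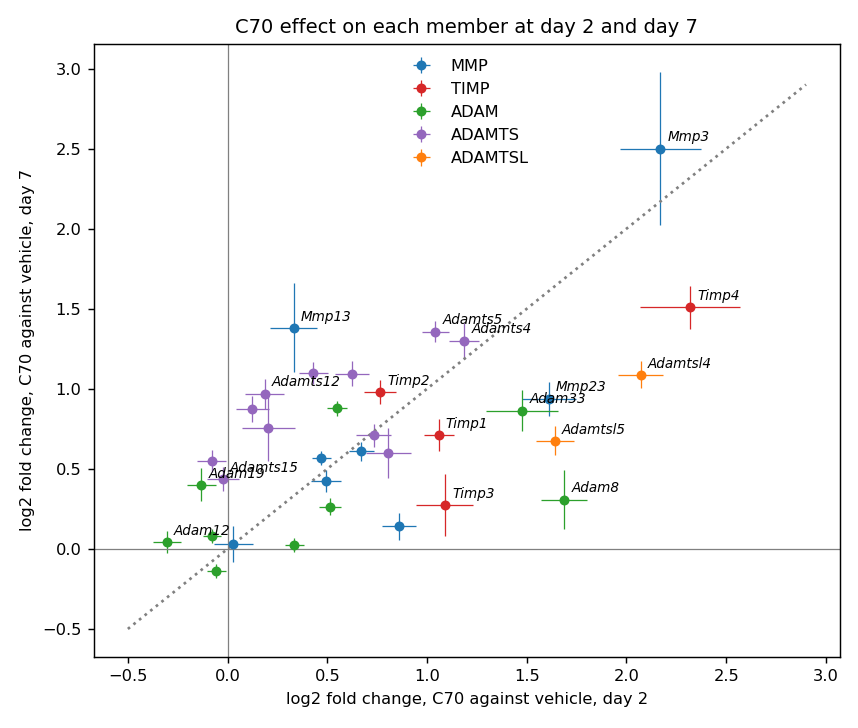
Log2 fold change with C70 at day 2 (x axis) and day 7 (y axis) of each of the 34 genes, coloured by family; bars are standard errors and the dotted line marks equal effects. Most ADAMTS genes lie above the dotted line, while Adam8, Timp3, Timp4, Adamtsl4 and Adamtsl5 lie below it.

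The day 2 and day 7 comparisons share no samples. Across the 34 genes their log2 fold changes correlated with a Pearson r of 0.578 and a Spearman rho of 0.485, and across the other 11925 genes with 0.564 and 0.471. Genes are not independent replicates, and these values are given as a description.

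Genes that act with these families were taken from lists of related genes. Their counts stand against 5.89%, 13.6%, 16.9% and 14.3% of all genes that were higher with C70 on days 0, 1, 2 and 7 and 3.09%, 7.8%, 13.6% and 4.85% that were lower, and lists of so few genes give coarse shares. The plasminogen system activates MMP precursors through plasmin, and its list also held inhibitors of that system. Of its 6 genes in the table, 2, 4, 3 and 2 were higher with C70 on days 0, 1, 2 and 7. On these days 2, 1, 1 and 1 (33.3%, 16.7%, 16.7% and 16.7%) were lower, and of these calls only that of Plat at day 0 is given below. The list medians on days 0, 1, 2 and 7 were 0.35, 0.83, 0.59 and -0.048 on the log2 scale. Plau, the urokinase gene, was higher by 0.85, 0.90 and 1.21 on the log2 scale at days 0, 1 and 2. Plat, which encodes the tissue-type activator, was lower at day 0 (-0.40) and higher by 0.75, 1.2466 and 1.16 afterwards. Serpine2, an inhibitor of these proteases, was higher by 1.14, 1.09 and 0.64 at days 1, 2 and 7. Plg was higher at day 1 by 0.93. Of 3 proprotein convertases, which remove the prodomains of many of these enzymes, 1 was higher at day 2 and 1 was lower at days 1 and 2. Pcsk4 was the lower one (-0.45 and -0.63), and Furin, named after its values were seen, the higher one (0.51).

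Among the astacins, the metalloproteases that process procollagens, and their enhancers, 4 of 4 genes were higher on day 2 and 3 of 4 on day 7, and the list medians were 1.12 and 0.87 on the log2 scale. These were Bmp1 (0.46 and 0.84), Pcolce (0.74 and 0.90), Tll1 (1.49 and 1.36) and, at day 2, Pcolce2 (2.29). Of 3 other metalloprotease inhibitors, Reck, a membrane-anchored inhibitor of MMPs, was higher at days 2 and 7 (0.45 and 1.07) and Pzp at day 1 (0.99). The other, Tfpi2, named after its values were seen, was lower at day 0 (-0.49) and higher at day 1 (0.54). Of 6 ADAMTS substrates and partners, 2, 3, 5 and 4 were higher at days 0, 1, 2 and 7. They included Fbln1, a cofactor of ADAMTS1, at 0.48, 1.13, 1.82 and 0.92, Vcan, the versican gene, at 0.79 and 0.87 at days 2 and 7, Fbn1, the fibrillin gene, at 0.86 and 1.06, and Thbs2 at 0.84 and 0.74. Comp was higher at day 0 only (0.93).

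Of 15 genes for membrane proteins shed by these enzymes, 2, 6, 9 and 8 were higher with C70 at days 0, 1, 2 and 7, and 1, 2 and 2 were lower at days 1, 2 and 7. The lower counts were 6.67%, 13.3% and 13.3% of the list, where 7.8%, 13.6% and 4.85% of all genes were lower. Dlk1, whose product ADAM17 sheds and which restrains adipogenesis, was higher by 0.39, 0.97 and 0.82 at days 1, 2 and 7. Cdh2 (0.50, 0.71 and 0.93), Ereg (0.80, 0.81 and 0.80) and Il6ra (0.60, 0.65 and 0.36) were higher on the same days. Cd44 was higher at days 2 and 7 (0.50 and 0.87), and Tnfrsf1b at days 1 and 2 (0.49 and 0.67). Among the lower ones, named after their values were seen, were Insr, the insulin receptor gene, at day 2 (-0.48) and Sdc4, the syndecan 4 gene, at day 7 (-0.34). The 6 cofactor genes of ADAM10 and ADAM17 had 2, 4 and 1 members higher at days 1, 2 and 7.

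Among 13 genes for AP-1, ETS and other factors known to act on MMP promoters, 1, 7, 11 and 2 were higher with C70 on days 0, 1, 2 and 7, and on day 7 another 2 were lower. The shares that were higher on days 0 and 7, 7.69% and 15.4%, were near those of all genes, 5.89% and 14.3%, while those on days 1 and 2 were 53.8% and 84.6%, against 13.6% and 16.9%. The lower ones at day 7, named after their values were seen, were Jun (-0.57) and Jund (-0.36). Fosl2 was higher at days 0, 1 and 2 (0.42, 0.81 and 0.70), Fos (0.67 and 0.52), Fosl1 (0.78 and 0.54), Junb (0.61 and 0.59) and Ets2 (0.62 and 0.68) at days 1 and 2, Fosb at day 2 (0.75), and Ets1 at days 2 and 7 (0.52 and 0.61).

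Markers of the differentiation state differed with C70 in ways that varied by marker and day. Of 5 of 5 preadipocyte and fibroblast markers in the table, Dlk1 and Thy1 were higher in every C70 sample than in any vehicle sample at day 0, and Pdgfra, Pdgfrb and Col1a1 overlapped. At day 1, Dlk1, Pdgfrb and Thy1 were so above, Col1a1 was below and Pdgfra overlapped. At days 2 and 7 all 5 were above. Their summed level, to which Col1a1 gave the most, ranged from 14336 to 15046 CPM in vehicle and from 14076 to 15473 with C70 at day 0, and from 4846 to 5308 and from 4600.1 to 5180.3 at day 1. It ranged from 1567 to 1616 in vehicle and from 2422 to 2644 with C70 at day 2, and from 977 to 1408 and from 2514 to 2928 at day 7.

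Of 6 of 6 adipocyte markers in the table, Cebpa and Lpl were above vehicle in every C70 sample at day 0, Fabp4 and Pparg were below, and Adipoq and Plin1 overlapped. At days 1 and 2, 5 were below and Plin1 overlapped. At day 7, Adipoq, Plin1 and Lpl were above and Fabp4, Pparg and Cebpa overlapped. Their summed level, which at day 0 was nearly all Lpl, ranged from 1287 to 1409 CPM in vehicle and from 1469 to 1522 with C70 at day 0, and from 4883 to 5094 and from 3066 to 3196 at day 1. It ranged from 18451 to 19339 in vehicle and from 10525 to 11587 with C70 at day 2, and from 19212 to 22253 and from 20636 to 22625 at day 7. The part of the differentiation state in the C70 results was not tested.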

How the data were processed

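RNA was isolated from 3T3-L1 cells in 29 samples of 8 groups and strand-specific libraries were made. The authors aligned reads with STAR (version 2.7.2a in the submitters' processing notes) to GRCm38 with Ensembl release 97 and deposited a table of whole-number counts for 11959 genes. The notes also name edgeR 3.26.8. How reads were counted, whether by strand, and how genes were filtered are not given in the sources used here. Each gene was above 1 CPM in at least 20 samples.

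Counts were fitted here with edgeR 4.0.16 in R 4.3.3 (TMM factors from 0.898 to 1.08, quasi-likelihood F test, two-sided, group means of all 8 groups in 1 fit), with Benjamini-Hochberg adjustment over all genes within each comparison. DEGs passed an adjusted P threshold of 0.05 with a log2 fold change over 0.322 in size. The common biological coefficient of variation was 0.0594. Counts of replicate pairs differed by more than sampling noise in all 39 pairs (chi-square per degree of freedom from 2.65 to 46.7). The test was checked on simulated data with known fold changes at day 2, in which all genes had the same dispersion. That check does not cover genes whose spread between replicates differs. DESeq2 1.42.0, limma 3.58.1, other scaling factors, thresholds and filters, separate fits, a replicate block and fits without each library were the alternatives. Coordinates, overlaps and exon lengths came from the GRCm38 annotation of Ensembl release 96, in which 11953 of the genes had a symbol.

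The symbol rule that set the members and the lists of related genes were both chosen with earlier results of these data known. All 34 genes were named. Values in every sample were given for the TIMP genes, Mmp2, Mmp14, Adam10, Adam12 and Adam17, for the 3 largest rises and 3 largest falls among DEGs with C70 on each day, and for the 3 largest rises and falls in vehicle from day 0 to day 7. Related genes were named where they were DEGs with a fold change over 1.5 on any day, with Dlk1 in addition, and some items that this rule covers are not reported here.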

Additional observations from a re-analysis of the deposited data

Results flagged for a closer look

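In 7 of 170 groups of 4 samples, 1 sample stood apart from the other 3 by Dixon's test at the 95% level, where chance gives about 1 in 20 groups, or 8.5. Mmp28 was at 68.7 CPM in day 1 C70 replicate 1, and at 80.3 to 81.4 in the other 3 samples. Timp4 was at 6.41 CPM in day 2 C70 replicate 2, and at 3.43 to 3.63 in the others. Adam33 was at 14.7 CPM in day 0 C70 replicate 1, and at 19.4 to 19.9 in the others. Adamts2 was at 127.0 CPM in day 1 C70 replicate 3, and at 121 to 122 in the others. In day 7 vehicle replicate 1, Adamts9 was at 63.8 CPM, against 84.0 to 85.7 in the others, and Adamts12 was at 142 CPM, against 193 to 197. Adamtsl5 was at 6.66 CPM in day 7 vehicle replicate 3, and at 8.99 to 9.19 in the others.

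The C70 effect differed between day 0 and day 2 for 12 of the genes described by sample, by edgeR's test of the difference. Some of these genes were picked for large C70 effects on single days, so the count describes a selected set. It moved upward for 25 of all 34 genes and for 14.9% of all genes in the table. The day 2 effect was above that of day 0 on the log2 scale by 0.71 for Mmp2, 1.62 for Mmp3, 0.60 for Mmp13 and 0.65 for Mmp14. For the inhibitors the difference was 0.85 for Timp1, 0.73 for Timp2 and 0.60 for Timp3. It was 0.47 for Adam8 and 0.58 for Adam10, and 0.53 for Adamts12, 0.56 for Adamts15 and 0.44 for Adamtsl4. After quantile normalization 3 of these differences no longer passed the test, with 0.25 for Adam8 (adjusted P = 0.2504 by limma), 0.24 for Adamtsl4 (adjusted P = 0.286 by limma) and 0.57 for Adamts15 (adjusted P = 0.106 by limma).

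The C70 effect also differed between day 2 and day 7 by the same test. The day 7 effect was above that of day 2 by 1.05 for Mmp13, 0.35 for Adam12, 0.53 for Adam19, 0.78 for Adamts12 and 0.46 for Adamts15. It was below that of day 2 for Timp1 (-0.35), Timp3 (-0.82), Timp4 (-0.81), Adam8 (-1.38) and Adamtsl4 (-0.98). After quantile normalization the difference for Mmp13 was 0.81 (adjusted P = 0.110 by limma).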

How the results depend on the processing

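The number of DEGs with C70 among the 34 genes moved by more than 1.5 times at day 0 alone, where it was 9 (6 higher and 3 lower): it was 5 (2 and 3) without the genes of lowest mean level, where fewer of the genes were tested, 17 (9 higher, 8 lower) when the fold change threshold was dropped, and 3 (all higher) when it was raised to 1.5. Fits without 1 library gave 7 to 10 at day 0, 19 to 22 at day 1, 22 to 24 at day 2 and 25 at day 7, and 15 to 21 for the difference between days 7 and 2. Quantile normalization was chosen after seeing the data. Of 213 called effects, 0 changed sign in the 38 to 40 fits that gave each a value. Effects near 0 that were not called did. Mmp14 at day 0 was -0.058 after quantile normalization, and Adam12 at day 0 was -0.010 with upper quartile factors and -0.0018 in a separate fit. Fits without 1 library spanned 0 for these effects: at day 0, Mmp14 from -0.0047 to 0.035, Timp2 from -0.0035 to 0.060 and Adam12 from -0.084 to 0.11, at day 1, Mmp2 from -0.020 to 0.056 and Adam10 from -0.060 to 0.0054, at day 2, Adamts15 from -0.049 to 0.0017, and at day 7, Adam12 from -0.017 to 0.098. The cause was not tested.

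With the replicate number as a block (replicate block), 20 instead of 21 genes were DEGs at day 1 and 18 instead of 19 for the difference between days 7 and 2, other counts were as before, and Mmp2 at day 1 was -9.5e-05. Deviations of same-numbered samples correlated at -0.205 to 0.214 in 13 pairs, with 2 over 0.1, and 3 pairs correlated best with their own number. With groups of 3 or 4 samples, these values cannot decide whether same-numbered samples were handled together, and the labels give only a number. Depth limits Mmp3 at day 7 and Timp4 at day 1, which rest on few counts.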
